A study of Arabidopsis thaliana with 12 samples.

Results

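Leaves of the wild-type Arabidopsis thaliana line Col were compared between 26 d and 14 d of age, in the 3 libraries of each age and across all expressed genes. These 6 libraries, of 12 in the series, were chosen by the genotype and age in their column names and fitted alone. The other 6 come from chlorella-1, a line labelled as a knockout of the chlorella gene, at the same 2 ages. Leaves were ground for RNA, ribosomal RNA was depleted, and the libraries keep the strand of the total RNA. Col is the unmutated line here, and no treatment is labelled at either age. The labels give neither the position of the leaves on the rosette nor the growth conditions. They also do not say whether libraries came from separate plants, so the p-values below measure only the spread between these samples, which may be technical.

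A leaf first grows by cell division and wall loosening, then works as a source of sugar, and finally senesces. In senescence, chlorophyll and chloroplast proteins are broken down, and their nitrogen, lipids and minerals are moved to growing parts of the plant. NAC and WRKY transcription factors head much of this programme, and ethylene, abscisic acid, jasmonate and salicylic acid act on its timing, while cytokinin delays it.

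The Col libraries held 56405611 to 70452171 counts in genes at 14 d and 58034270 to 58833770 at 26 d. Levels are CPM, counts scaled to a common library size with the TMM factors of edgeR, and differences are log2 fold changes of 26 d against 14 d with their standard error. Of 18964 genes tested, 5299 were higher at 26 d (27.9%) and 4951 were lower (26.1%) at an adjusted p under 0.05, together 54.0%. The 3 libraries of an age did not overlap those of the other for 12313 genes (64.9%). The median log2 fold change was 0.94 among the genes called higher, −1.16 among those called lower and 0.05 over all genes tested. A call together with an absolute log2 fold change of at least 1 was reached by 5367 genes (28.3%), of which 2498 were higher and 2869 lower. Among called genes, 659 rose and 595 fell by a log2 fold change of 3 or more. Among the genes named below, CAB1, LHCB3, PSBR, PGK1, PORB, HEMC, CAT2, EBF2, NBR1, NAC083, IAA10, XCP1, CSD1, FLC, SPL3, SPL9, GSTF12, NF-YA5, NF-YA6, U1.6, U1.7 and APR1 overlap an annotated gene on the opposite strand, and others are marked where they appear. The strand setting of the counting is not given in the sources used here, so the counts of such genes are uncertain.

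The older libraries varied more among themselves. The median SD of log2 CPM was 0.151 at 14 d and 0.228 at 26 d, and the SD exceeded 1 for 270 genes at 14 d and 1003 genes at 26 d. Spearman's rho across genes was 0.990 to 0.991 between libraries at 14 d and 0.965 to 0.981 at 26 d. The first principal component held 83.1% of the variance and separated the ages. At 26 d, replicate 2 lay nearest to the 14 d libraries on it and replicate 1 farthest away. Among the genes called lower, replicate 1 was the lowest 26 d library for 59.3% and replicate 2 the highest for 57.2%. The number of calls was 10456 without 26 d replicate 2 and 9887 without 26 d replicate 1.

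**Figure D1:**
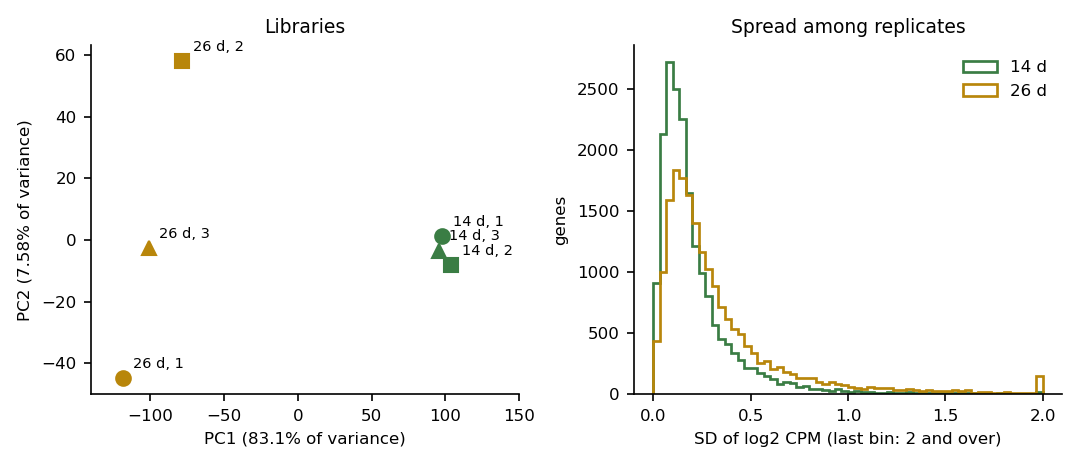
Left, the 6 Col libraries on the first and second principal components of log2 CPM, labelled by age and replicate. Right, the number of genes by the SD of log2 CPM over the 3 libraries of an age. The 14 d libraries lie together, the 26 d libraries are spread out, and the 26 d distribution of SDs reaches higher.

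The leaf label was checked against marker genes. All 5 mesophyll markers were measured, with summed levels of 11374 to 12894 CPM at 14 d and 3139 to 5569 CPM at 26 d. All 7 root markers and all 4 shoot meristem markers were at 0 counts in every Col library. Of 8 floral organ markers, 4 were at 0 and the summed level was 0.230 to 0.660 CPM at 14 d and 0.862 to 1.31 CPM at 26 d. In leaf material, fewer cells of a type and less RNA per cell cannot be told apart.

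The nuclear genes of the photosynthetic apparatus fell almost as a body. All 20 light-harvesting genes, which encode the chlorophyll-binding antenna proteins, were lower at 26 d, with a median log2 fold change of −1.54. Of 31 genes for photosystem subunits and electron carriers, 30 were lower, with a median of −1.27, and PSBR did not pass (log2 fold change −0.39), except without 26 d replicate 2 (adjusted p = 0.0423) or with DESeq2 (adjusted p = 0.0145). The summed level of the light-harvesting genes was 47834 to 56774 CPM at 14 d and 13927 to 25218 CPM at 26 d, lowest in 26 d replicate 1.

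RBCS1A, a gene for the small subunit of the carbon-fixing enzyme Rubisco, had 3849, 3421 and 3300 CPM at 14 d and 446, 958 and 665 CPM at 26 d. The ages were well apart, and the log2 fold change was −2.35 ± 0.28 (SE, n = 3 against 3, adjusted p = 0.000307). CAB1, an antenna gene of photosystem II, stood at 9472, 8326 and 7613 CPM at 14 d against 2879, 4395 and 4856 CPM at 26 d. Its mean FPKM, a level per gene length in the authors' deposited values, was 5847 at 14 d, the highest of the protein-coding nuclear genes, and 2732 at 26 d. LHB1B1 (LHCB1.4), of the same family, dropped further, from 3252, 3221 and 2797 CPM to 91.2, 773 and 310 CPM. Its 26 d libraries differed among themselves more than its 14 d libraries did, with replicate 1 lowest. CAB1, RBCS1A, LHB1B1, LHCB5, LHCB3 and CAB2 were the 6 nuclear genes that lost most CPM. Members of the LHCB1 and RBCS families are close in sequence, so how reads were shared between them is uncertain.

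Carbon fixation and pigment synthesis followed the same direction. In the Calvin cycle, 18 of 21 genes were lower (median −1.47). The exceptions were CP12-1 and CP12-3, which encode small regulatory proteins of the cycle and were called higher, and CP12-2, which did not pass. The call of CP12-3 was lost without any of the libraries except 26 d replicate 2 (adjusted p = 0.0631 to 0.152), which left 1 higher gene. TIM, the plastid triose phosphate isomerase, fell from 119, 112 and 95.8 CPM to 32.5, 44.1 and 38.3 CPM, and PGK1, phosphoglycerate kinase, by 1.94 on the log2 scale. Photorespiration, which recovers carbon after Rubisco has fixed oxygen, had 11 of 13 genes lower (median −1.05), or 7 with all 12 libraries in the fit. Its AT1G11860, a subunit of glycine decarboxylase, had 277, 295 and 255 CPM at 14 d and 43.5, 96.9 and 62.0 CPM at 26 d.

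All 23 chlorophyll synthesis genes fell, with a median of −1.54. PORB, one of the light-dependent enzymes that make chlorophyllide, had 326, 285 and 263 CPM at 14 d and 57.2, 74.0 and 73.0 CPM at 26 d. Its ages were far apart, and the log2 fold change was −2.1 ± 0.16 (SE, adjusted p = 5.06e-05). HEMC, GSA2 and HEME1, which act in the earlier steps to tetrapyrroles, fell by 1.68, 1.80 and 2.02. PORA, the form used mainly by dark-grown seedlings, was low at both ages, at 1.04 to 1.55 CPM and 0.0638 to 0.429 CPM, and its call was lost with all 12 libraries in the fit (adjusted p = 0.220).

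**Figure D2:**
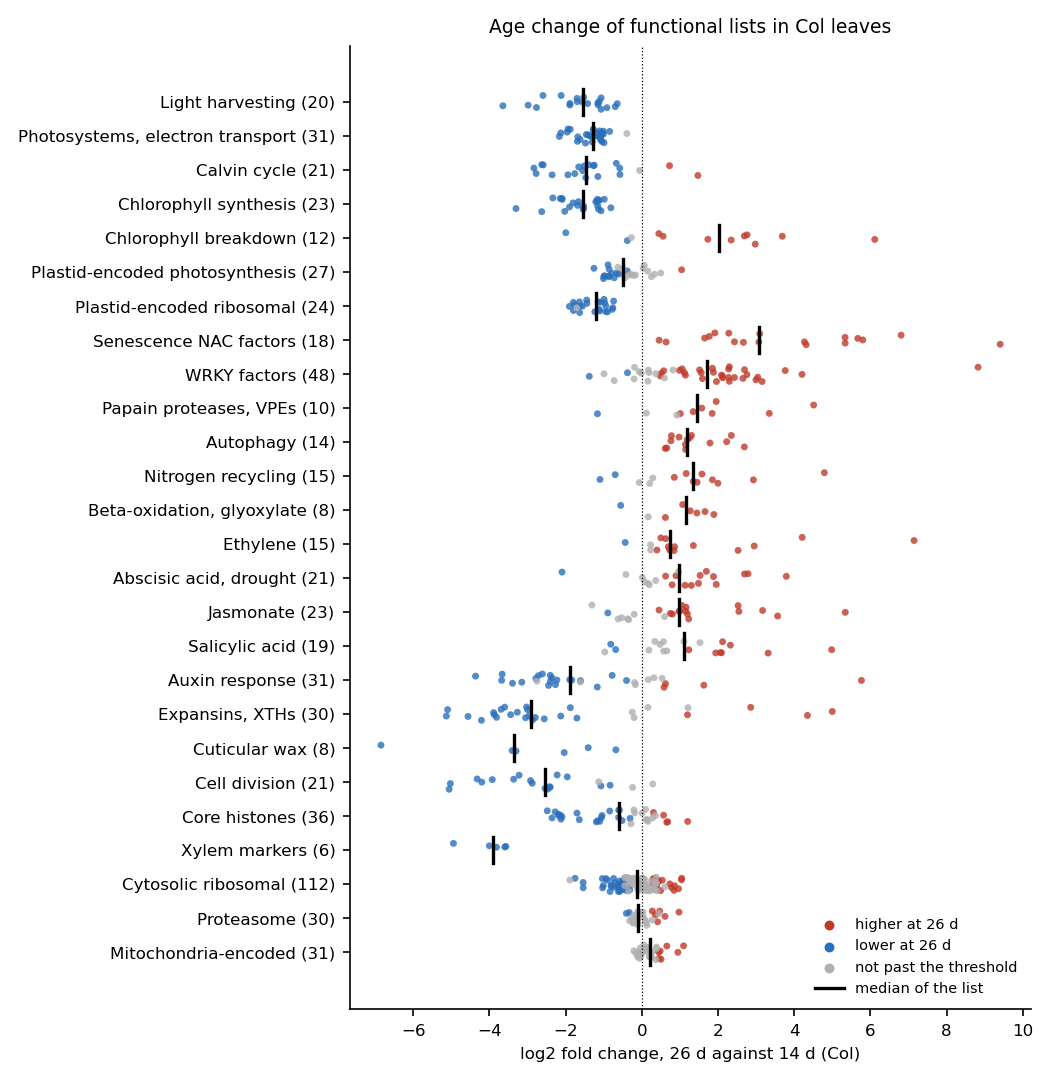
Log2 fold change of 26 d against 14 d for the members of 26 functional lists in Col, with the number tested in brackets. A point is a gene, coloured by its call, and the black bar is the list's median. The 10 genes at 0 counts at 1 age are left out as points, since their fold change has only a bound. The medians of the light-harvesting (−1.54) and cell division (−2.54) lists lie to the left of 0 and those of the senescence NAC (3.08) and autophagy (1.17) lists to the right.

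Regulators of greening did not stand apart from the genes at large, with 3 higher, 2 lower and 6 not called of 11, against 27.9% and 26.1% over all genes tested. HY5, a transcription factor of light responses, rose from 0.654 to 1.01 CPM to 2.02 to 3.03 CPM, a log2 fold change of 1.54. CGA1, a GATA factor that promotes chloroplast development, rose by 1.63, and its relative GNC was called lower (−0.44), a call that was lost without any of the 14 d libraries (adjusted p = 0.0862, 0.0601 and 0.0598). The GNC call was also lost with all 12 libraries in the fit (adjusted p = 0.120). GLK1 and GLK2, which activate photosynthesis genes, did not pass.

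Promoters of genes with strong falls were printed where known light elements could be read. RBCS2B, a further Rubisco small subunit gene, had 827, 716 and 635 CPM at 14 d and 23.8, 217 and 78.2 CPM at 26 d, a log2 fold change of −2.77. The 250 bases before its annotated start, from the RefSeq TAIR10.1 genome (chr5:15382072-15382321, minus strand), are shown because they hold both motifs named for light-regulated genes. Capitals mark 1 G-box (CACGTG) at 123 bases before the start and 3 I-boxes (GATAAG, either strand) at 146, 115 and 94 bases before it.
RBCS2B promoter: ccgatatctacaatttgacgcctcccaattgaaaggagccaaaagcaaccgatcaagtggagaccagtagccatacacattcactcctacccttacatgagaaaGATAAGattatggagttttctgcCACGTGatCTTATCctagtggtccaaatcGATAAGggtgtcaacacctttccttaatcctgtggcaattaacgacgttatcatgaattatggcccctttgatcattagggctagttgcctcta
In windows of 250 bases before to 50 after the start, 35.5% of the photosystem and electron transport genes held a G-box and 51.6% an I-box. Over the 17951 tested genes with a window the shares were 8.96% and 15%. Among all genes called lower they were 8.76% and 16%, close to the share over all tested genes.

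The plastid genome changed unevenly. All 6 ATP synthase genes and all 12 NDH genes of the plastid were lower, as were 23 of 24 plastid-encoded ribosomal protein genes. Of 27 plastid-encoded photosynthesis genes, 13 were lower, 13 did not pass and psbN was higher. rbcL, the large subunit of Rubisco, had 166904, 163748 and 137143 CPM at 14 d and 55058, 79648 and 61392 CPM at 26 d, a log2 fold change of −1.25 ± 0.25 (SE, adjusted p = 0.00369). psbA, the D1 protein of photosystem II, had 364951, 423959 and 425188 CPM at 14 d and 533511, 587038 and 594979 CPM at 26 d. Its ages did not overlap, yet its call was not reached (log2 fold change 0.50, adjusted p = 0.146). It was reached with the DESeq2 Wald test (adjusted p = 0.000523) and without 26 d replicate 1 (adjusted p = 0.0205). psbN lies on the strand opposite to the psbB genes, so its rise is uncertain. The call of psbN was also lost without 14 d replicate 1, 14 d replicate 2 or 26 d replicate 3 (adjusted p = 0.0516, 0.0805 and 0.0561).

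Plastid counts other than psbA fell from 27.3% ± 1.54 to 14.5% ± 0.868 of a library's gene counts (SD, n = 3), and psbA rose from 40.2% ± 2.88 to 57.4% ± 1.12. Both differences gave the smallest p that an exact permutation test of 3 against 3 allows, 0.1. Among nuclear counts, the genes holding 50% of the total numbered 271 to 331 at 14 d and 646 to 827 at 26 d, so nuclear RNA was spread over more genes. Nuclear genes for plastid ribosomal proteins were lower in 13 of 19 cases, with a median of −1.49, and higher in 3, a count that was 0 without 14 d replicate 2 and 1 without 14 d replicate 1 or 26 d replicate 1. Of 31 mitochondria-encoded protein genes, 7 were higher (22.6%) and none lower (median 0.21), against 27.9% and 26.1% over all genes tested. The share called higher was thus no larger than over all genes. The 7 became 4 without 14 d replicate 1 or 14 d replicate 3. nad4L, a subunit of respiratory complex I, rose from 45.0, 51.4 and 52.2 CPM to 80.6, 73.7 and 80.1 CPM.

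Chlorophyll breakdown genes went the other way from chlorophyll synthesis. Of 12 genes, 9 were higher and 2 lower, with a median of 2.04, and 1 was lower without 14 d replicate 1 or 26 d replicate 3. NYC1, which converts chlorophyll b towards chlorophyll a, had 26.2, 20.0 and 24.0 CPM at 14 d and 367, 283 and 255 CPM at 26 d. The lowest 26 d value was far above the highest 14 d value, and the log2 fold change was 3.69 ± 0.19 (SE, adjusted p = 1.51e-05). NYE1 (SGR1), the stay-green gene that removes magnesium from chlorophyll, rose from 7.14, 7.69 and 7.96 CPM to 72.0, 51.4 and 56.0 CPM. AT4G11910, a related stay-green gene, rose by 6.11, while AT1G44000 (SGRL), a further one, fell by 1.99 (adjusted p = 0.000385). The other lower gene of the list was ACD2 (−0.38). PPH, pheophytinase, rose by 2.34.

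All 18 senescence NAC factors were higher, with a median of 3.08. NAC6 (ORE1), a central activator of leaf senescence, had 0.322, 0.0900 and 0.283 CPM at 14 d and 25.7, 21.8 and 30.7 CPM at 26 d. It was close to absent from every young library and present in every older one (log2 fold change 6.80 ± 0.32, adjusted p = 1.07e-05). NAP, another positive regulator, rose from 2.64, 1.93 and 3.22 CPM to 56.4, 45.5 and 48.0 CPM. NAC3 (AT3G15500), also known as NAC055 and induced by jasmonate and abscisic acid, rose by 9.40. NAC083 (VNI2), which is known to delay senescence, rose as well, by 1.65.

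**Figure D3:**
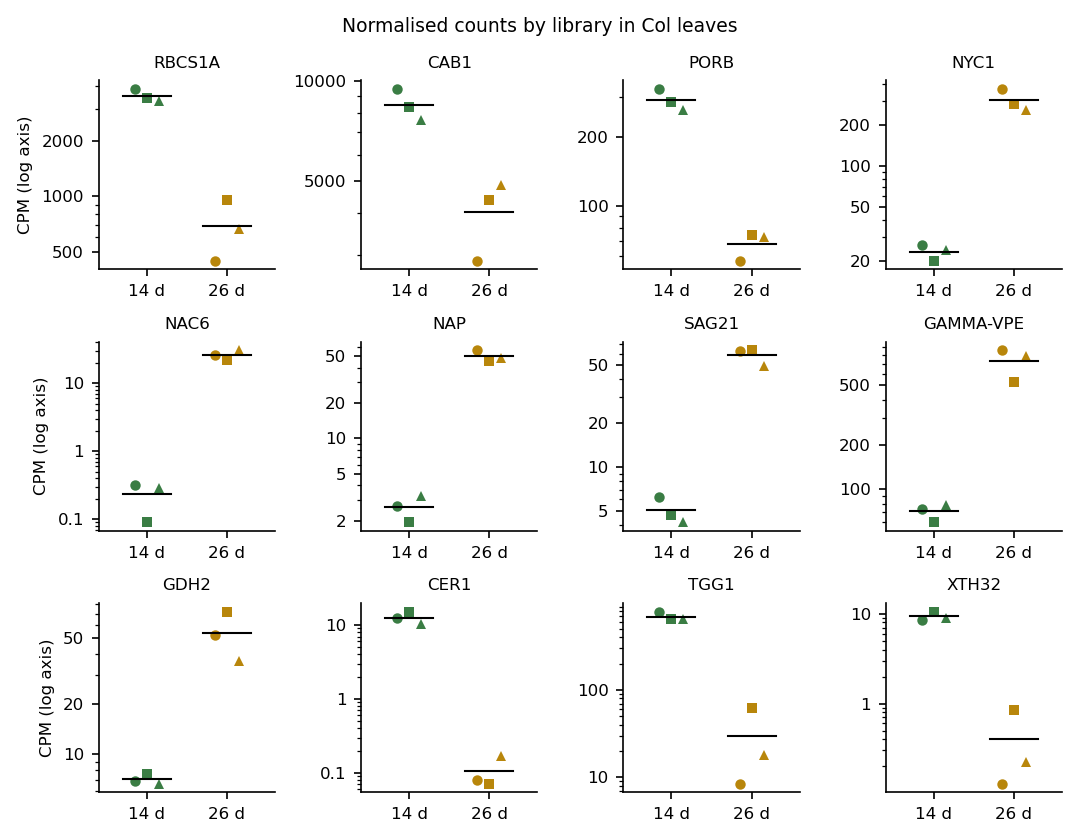
CPM by library on a log axis for 12 genes in Col, with 14 d in green and 26 d in gold. Circles, squares and triangles are replicates 1, 2 and 3, and the bar is the mean of an age. In every panel the ages do not overlap, and for RBCS1A, TGG1 and XTH32 the 26 d square lies above the other 26 d points.

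Of 48 WRKY genes tested, 34 were higher and 2 lower, WRKY17 and WRKY20 (median 1.72). The call of WRKY20 was lost without 14 d replicate 1 (adjusted p = 0.0832). WRKY25, involved in heat and salt responses, had 9.30, 9.24 and 9.44 CPM at 14 d and 35.5, 39 and 34.5 CPM at 26 d, a tight rise by 1.96 (SE 0.10). WRKY45 rose from 0.0280, 0 and 0.0531 CPM to 17.1, 12.4 and 8.20 CPM. WRKY6, a factor of senescence and defence, rose by 2.43. WRKY53, a known early regulator of senescence, moved less, from 2.34, 1.32 and 1.38 CPM to 4.79, 7.86 and 6.0 CPM. Its rise by 1.88 passed here but not with all 12 libraries in the fit (adjusted p = 0.117), and WRKY53 overlaps an opposite-strand gene.

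Senescence markers were among the largest changes of all. Each of the 16 tested was higher (median 3.97). SAG12, the cysteine protease used as the standard marker of leaf senescence, had 0 counts in all 14 d libraries and 206, 77.2 and 72.5 CPM at 26 d. Against a floor of 3 counts over the 14 d group this is at least 7688-fold higher. DOX1, an alpha-dioxygenase that makes oxylipins, was also at 0 at 14 d and had 132, 106 and 98.5 CPM at 26 d. DIN2, a dark-inducible glucosidase, had 0 at 14 d against 82.5, 134 and 116 CPM. All 12 genes with the largest rises by the naming rule were at 0 at 14 d, among them OSM34 (osmotin), PGAZAT (a polygalacturonase of abscission) and GLR1.3 (a glutamate receptor-like gene).

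In all, 124 genes, 117 of them protein-coding, had 0 counts over the 14 d group and at least 10 in each 26 d library. The reverse held for 84 genes, 81 of them protein-coding. Of these, 24 and 22 overlap a gene on the opposite strand. Those seen only at 14 d were led by AT1G60590 (pectin lyase-like), at 170, 257 and 109 counts, at least 160-fold higher than the floor of 3 counts over the 26 d group. They included CER4 of wax synthesis and CYCB2;2, a mitotic cyclin.

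SAG21, a senescence-associated gene of the late embryogenesis abundant family, had 6.24, 4.69 and 4.17 CPM at 14 d and 62.2, 63.3 and 49.6 CPM at 26 d, a log2 fold change of 3.53 ± 0.19 (SE, adjusted p = 1.6e-05). The 250 bases before its start (TAIR10.1, chr4:1047106-1047355, minus strand) are shown because WRKY factors bind the W-box. Capitals mark W-boxes (TTGACC or TTGACT, either strand), at 64 and 26 bases before the start.
SAG21 promoter: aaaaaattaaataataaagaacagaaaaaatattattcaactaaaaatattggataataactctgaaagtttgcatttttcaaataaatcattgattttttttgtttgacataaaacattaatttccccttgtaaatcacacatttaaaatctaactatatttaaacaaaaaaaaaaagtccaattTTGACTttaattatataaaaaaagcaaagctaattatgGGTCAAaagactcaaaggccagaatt

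Over the windows of 250 bases before to 50 after the start, 32.8% of the 17951 genes held a W-box. The share was 37.8% among genes called higher, 28.2% among genes called lower, and 44.7% among the 631 with a rise of at least 3 on the log2 scale. Site II (TGGGCC), common before genes of ribosomal proteins and cell growth, was held by 19.8% of all, 15.8% of the higher genes and 19.1% of the lower genes. Among genes that rose by at least 3 it was held by 5.23%, and among those that fell by at least 3 by 10.3%. The GCC-box (GCCGCC), the element of ethylene response factors, was held by 2.70% of all, 3.16% of the higher and 1.72% of the lower genes. The evening element (AAATATCT) was held by 6.09%, 7.18% and 5.78%, and the telo-box (AAACCCTA) by 5.49%, 4.22% and 4.48%. Motifs were searched on both strands. A match is a string of letters, with no measurement of binding, and these shares carry no test.

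**Figure D4:**
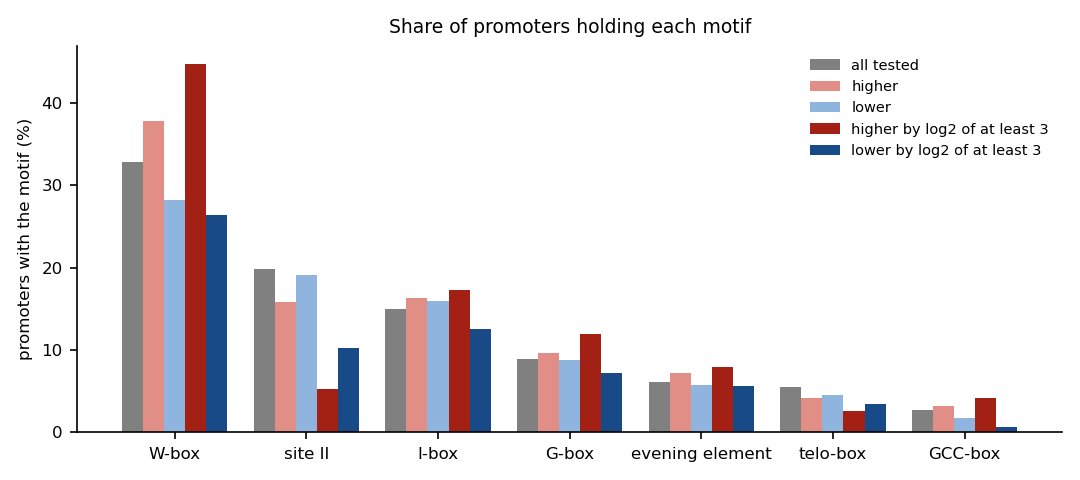
Share of promoters, in percent, that hold each motif on either strand within 250 bases before to 50 after the start, for all tested genes and for 4 groups of genes by age change in Col. The W-box bars rise from all tested genes (32.8%) to the strongest rises (44.7%), and the site II bars fall to 5.23%.

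The machinery of protein breakdown rose in parts. Of 10 papain-like proteases and vacuolar processing enzymes, 7 were higher and 1 lower (median 1.46). GAMMA-VPE, a vacuolar processing enzyme that matures other proteases, had 74.2, 60.1 and 79.2 CPM at 14 d and 863, 525 and 783 CPM at 26 d. RD21A, a papain-like protease, rose from 129, 118 and 126 CPM to 596, 446 and 398 CPM. ALP, a vacuolar aleurain-like protease, rose by 1.57. AT4G16190, a further papain family gene, was among the 6 nuclear genes that gained most CPM, going from 146, 134 and 147 CPM to 816, 614 and 701 CPM. GAMMA-VPE and AT4G16190 each overlap an opposite-strand gene.

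All 14 autophagy genes were higher, with a median of 1.17. ATG8B, one of the small proteins that coat autophagosomes, rose from 1.54, 2.1 and 1.77 CPM to 11.2, 10.3 and 13.4 CPM. NBR1, a receptor that brings cargo to autophagosomes, rose by 1.3. Among 30 proteasome genes, 6 were higher, 2 lower and 22 not called, with a median of −0.10. The counts of higher and lower genes were 2 and 2 without 14 d replicate 2, 2 and 3 without 14 d replicate 3, and 3 and 7 without 26 d replicate 2. In the chloroplast, CLPC1, a chaperone of the Clp protease, rose by 0.70, and its call was lost without 14 d replicate 2 or 14 d replicate 3 (adjusted p = 0.0605 and 0.0619).

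Nitrogen genes showed a shift between enzymes of the same reaction. Of 15 genes, 10 were higher and 2 lower (median 1.35). GDH2, glutamate dehydrogenase, had 6.91, 7.56 and 6.61 CPM at 14 d and 52.3, 72.0 and 36.3 CPM at 26 d. GSR 1 (GLN1;1), a cytosolic glutamine synthetase used in nitrogen export, rose from 76.0, 50.5 and 65.7 CPM to 238, 258 and 198 CPM. GS2, the plastid form, fell from 594, 512 and 449 CPM to 165, 246 and 200 CPM. The 2 forms therefore moved in opposite directions. ASN2, an asparagine synthetase, fell by 1.1.

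Carbon reserves and lipids changed too. Of 7 beta-oxidation genes, 6 were higher and none lower. PCK1, of gluconeogenesis, was lower (−0.55), a call lost with all 12 libraries in the fit, and ICL and MLS of the glyoxylate cycle had too few counts to be tested. PKT3 (KAT2), the thiolase of peroxisomal beta-oxidation, rose from 81.3, 70.4 and 78.7 CPM to 296, 292 and 267 CPM, and ACX1, an acyl-CoA oxidase, by 1.66. Of 15 starch genes, 11 were lower (7 with all 12 libraries in the fit) and 1 higher. SS1, a starch synthase, fell by 1.31 and ADG1, a subunit of ADP-glucose pyrophosphorylase, by 1.14. BAM1, a starch-degrading amylase, was the exception, from 18.4, 14.8 and 14.5 CPM to 67.9, 43.3 and 65.8 CPM. Among sugar transport and dark-inducible genes, 8 of 11 were higher. MSS1 (STP13), a hexose uptake carrier, rose from 23, 27.7 and 26.8 CPM to 128, 134 and 128 CPM.

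Among the antioxidant genes, the catalases differed from each other. CAT3 (AT1G20620) had 727, 544 and 681 CPM at 14 d and 2552, 1550 and 2250 CPM at 26 d, a gain in CPM exceeded among called nuclear genes by that of RR3 alone. CAT1 rose by 1.09, while CAT2 did not pass (−0.39), except without 26 d replicate 2, where it was −0.66 (adjusted p = 0.00711). Of the 15 antioxidant genes, 3 were higher and 6 lower, against 27.9% and 26.1% over all genes tested. RR3 (ARR8), a type-A response regulator of cytokinin signalling, gained most, from 7138, 6843 and 7932 CPM to 10095, 10951 and 9321 CPM. It overlaps AT2G09250 on the opposite strand, so its counts are uncertain. Its log2 fold change of 0.47 (adjusted p = 0.0431) lost the call without any library except 26 d replicate 1, with values of 0.34 to 0.53 and adjusted p up to 0.221. The call was also lost with all 12 libraries in the fit (adjusted p = 0.0885), with the replicate block (adjusted p = 0.080), with psbA left out (adjusted p = 0.0525) and under other scalings and filters.

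Hormone genes differed by hormone. Of 15 ethylene genes, 12 were higher and 1 lower (median 0.73), and none was lower without 14 d replicate 1 or 14 d replicate 2. EBF2, which marks EIN3 for breakdown and is itself induced by ethylene, rose from 3.85, 4.54 and 4.42 CPM to 28.4, 19.4 and 26.0 CPM. EIN3, the main transcription factor of the pathway, rose by 0.86, and the receptor gene ETR2 from 0.124 to 0.165 CPM to 2.25 to 3.41 CPM. Of 21 genes of abscisic acid, drought and cold, 13 were higher and 1 lower (median 0.97). HAB1, a phosphatase that holds back abscisic acid signalling, had 7.23, 7.75 and 6.72 CPM at 14 d and 31.1, 24.9 and 28.1 CPM at 26 d. RD20, a caleosin of drought response, rose by 3.79.

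Of 23 jasmonate genes, 15 were higher and 1 lower, AOC4 (median 0.98), and 3 were lower without 14 d replicate 1 or 26 d replicate 1. JAZ1, a repressor of jasmonate signalling that is itself induced by it, had 0.853, 1.75 and 2.64 CPM at 14 d and 13.0, 6.45 and 11 CPM at 26 d. PDF1.2, a defensin induced by jasmonate with ethylene, rose from 1.09, 1.05 and 0.920 CPM to 87.3, 31.1 and 6.03 CPM, the widest spread of these genes at 26 d. VSP2 and LOX2, both jasmonate-induced, did not pass (−0.62 and −0.53), though VSP2 passed without 14 d replicate 1 (adjusted p = 0.0457) and LOX2 without 26 d replicate 1 (adjusted p = 0.0199).

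The salicylic acid list was divided, with 8 higher, 2 lower and 9 not called of 19 (median 1.11). The lower count became 1 without 14 d replicate 1, 26 d replicate 1 or 26 d replicate 3. PR1, its usual marker, had 23, 6.75 and 34.1 CPM at 14 d and 183, 334 and 118 CPM at 26 d, a log2 fold change of 3.32 ± 0.61. PR5 overlapped between ages, at 11.2 to 29.0 CPM and 9.13 to 90.4 CPM, and passed without 26 d replicate 1 alone of the libraries (adjusted p = 0.0183). ACD6, an ankyrin protein that acts with salicylic acid, fell from 135, 118 and 124 CPM to 73.0, 77.9 and 63.5 CPM, a fall that did not pass with all 12 libraries in the fit (adjusted p = 0.214). In cytokinin response, 1 gene was higher and 2 lower of 8, and 6 were lower without 26 d replicate 1, 5 without 26 d replicate 2 and 1 without any 14 d library. RR5, a type-A response regulator, fell from 3.69, 4.63 and 4.76 CPM to 0.814, 2.13 and 1.24 CPM.

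Genes of growth were mainly lower. Of 31 auxin-responsive genes, 20 were lower and 4 higher (median −1.89). IAA8, an auxin-signalling repressor, had 65.9, 78.7 and 67.6 CPM at 14 d and 10.5, 17.9 and 16.9 CPM at 26 d. The 4 higher were SAUR36, IAA18, SAUR9 and IAA10, of which SAUR36, known to promote leaf senescence, rose from 0.0750 to 0.154 CPM to 3.39 to 8.90 CPM. The call of IAA10 was lost without 14 d replicate 1 or 26 d replicate 2 (adjusted p = 0.0521 and 0.0544), and that of SAUR9 with all 12 libraries in the fit (adjusted p = 0.0584). Of 30 expansins and xyloglucan endotransglucosylases, which loosen or remodel the cell wall, 21 were lower and 5 higher (median −2.91). EXPA5, an expansin, had 12.9, 12.9 and 10.8 CPM at 14 d and 0.0638, 0.929 and 0.103 CPM at 26 d. XTH32 dropped in the same manner, from 8.63, 10.6 and 8.91 CPM to 0.128, 0.858 and 0.224 CPM. In both genes 26 d replicate 2 was the highest of its age. EXPA11 fell by 4.21 with all libraries and by 6.60 without 26 d replicate 2. The 5 higher genes were XTH29, XTH24, XTH10, XTH11 and XTH30. The call of XTH30 was lost without any library except 26 d replicate 1 (adjusted p = 0.0605 to 0.0964), and its log2 fold change of 1.2 became 0.73 without 26 d replicate 2. XTH24 went from 5.62, 5.79 and 9.30 CPM to 52.1, 58.5 and 39.3 CPM.

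Cell division genes were low in both ages and lower in the older leaves. Of 21 tested, 18 fell and none rose (median −2.54). CYCD3;1, a D-type cyclin, had 1.06, 1.09 and 1.41 CPM at 14 d and 0.0479, 0 and 0.0517 CPM at 26 d. MCM5, of the DNA replication helicase, fell by 2.40. Core histone genes followed in part, with 21 lower and 5 higher of 36 (median −0.60), and 3 higher without any of the 14 d libraries, 26 d replicate 2 or 26 d replicate 3. HTA6, an H2A histone, fell from 6.52, 5.88 and 5.59 CPM to 1.53, 1.63 and 1.05 CPM. ANT, a growth factor gene of young organs, fell by 4.60, and the leaf-shape regulator TCP4 by 1.67.

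All 8 cuticular wax genes were lower (median −3.35). CER1, needed for wax alkanes, had 12.3, 15.2 and 10.2 CPM at 14 d and 0.0798, 0.0715 and 0.172 CPM at 26 d. Its fall (log2 fold change −6.84 ± 0.29, adjusted p = 7.42e-06) was the strongest under the part of the naming rule that needs a symbol and 5 CPM in an age. CER4, below that level and at 0 counts at 26 d, has only a bound. LACS2, an acyl-CoA synthetase of the cuticle, fell by 4.37. Markers of vascular and surface cells fell with them. All 6 xylem markers tested were lower, with a summed level of 18.5 to 22.4 CPM at 14 d and 0.367 to 2.66 CPM at 26 d. XCP1, a xylem protease, went from 5.82, 6.01 and 4.63 CPM to 0.0798, 0.375 and 0.0861 CPM. Of 6 phloem markers, 5 were lower and 1 higher, a single rise that was lost without any 1 of the 6 libraries, with sums of 244 to 248 CPM and 135 to 172 CPM. Of 4 epidermis and trichome markers tested, 3 were lower, with sums of 56.2 to 62.2 CPM and 16.2 to 23.8 CPM. Of 4 guard cell markers tested, 2 were lower, or 1 without 14 d replicate 1, 14 d replicate 2 or 26 d replicate 3, with sums of 9.82 to 10.5 CPM and 6.24 to 9.54 CPM. The part of these cell types in the fall of the growth and wax genes was not tested.

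The myrosinases, which release toxic products from glucosinolates when a leaf is wounded, lost most of their RNA. TGG1 had 787, 642 and 646 CPM at 14 d and 8.46, 63.0 and 17.9 CPM at 26 d, and TGG2 had 256, 201 and 216 CPM against 0.319, 12.6 and 1.65 CPM. Both were lowest in 26 d replicate 1 and highest in replicate 2. MYB29 and MYB34, which activate glucosinolate synthesis, fell by 1.91 and 1.78, and the call of MYB29 was lost with all 12 libraries in the fit (adjusted p = 0.0531). Of the 16 genes, 6 were lower (3 with all 12 libraries in the fit), 2 higher and 8 not called, and 1 was higher without any 14 d library. Of 8 flavonoid genes, PAP1, an activator of anthocyanin synthesis, rose from 0.435 to 0.902 CPM to 3.33 to 7.72 CPM, a call lost with all 12 libraries in the fit (adjusted p = 0.0523). LDOX and GSTF12, late genes of that pathway, were high in 26 d replicate 1 alone, at 2.81 and 5.04 CPM against at most 0.161 CPM in the other 26 d libraries. Neither passed, and without that library both log2 fold changes turned, from 2.27 to −0.62 and from 3.09 to −2.46.

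Of 23 flowering and phase-change genes, 6 were higher and 5 lower, shares near those over all genes tested (27.9% and 26.1%). These counts were 6 and 8 without 26 d replicate 2, 4 and 3 without 14 d replicate 1, and 3 and 2 without 14 d replicate 2. AGL20 (SOC1), a floral integrator, had 21.7, 22.5 and 27.1 CPM at 14 d and 57.6, 55.6 and 68.8 CPM at 26 d, a log2 fold change of 1.35. AGL8 (FRUITFULL), a gene of flowering and leaf ageing, rose from 0.465 to 0.761 CPM to 1.79 to 2.57 CPM. FT, the mobile flowering signal, rose from 0.112, 0.150 and 0.230 CPM to 1.13, 0.393 and 0.810 CPM. SNZ, a repressor of flowering, fell by 1.23, a call lost with all 12 libraries (adjusted p = 0.146). Also called were AGL24 and RAP2.7 (TOE1), lower by 0.97 and 0.52, and AP2 and MAF3, higher by 0.58 and 0.37. The named genes therefore do not stand for the whole list.

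FLC, the repressor acted on by vernalization, was low throughout, at 0.714, 0.855 and 0.318 CPM at 14 d and 0, 0.161 and 0 CPM at 26 d. Its log2 fold change was −3.56. Without 26 d replicate 2 the 26 d group was at 0 counts, so the size of the fall then has only a bound. The call was lost without 14 d replicate 1 or 14 d replicate 2 (adjusted p = 0.0590 and 0.0633). SPL3, a target of the juvenile-phase miR156, fell from 3.43 to 4.2 CPM to 1.37 to 2.83 CPM, and its call was lost in the absence of 14 d replicate 1 or 14 d replicate 2 (adjusted p = 0.0786 and 0.0707). With all 12 libraries in the fit neither FLC nor SPL3 passed (adjusted p = 0.0713 and 0.152). SPL9 just missed (−1.02, adjusted p = 0.0502), and passed under some alternatives, among them limma voom (adjusted p = 0.0322) and the fit without 26 d replicate 2 (−1.47, adjusted p = 0.0111). The SPL genes did not move together, as SPL10 was called higher (0.46, adjusted p = 0.0260). SPL4, SPL5 and SPL13A (0.73, 0.72 and 0.36) and SPL2 and SPL11 (−0.35 and −0.46) did not pass. SPL4, SPL5 and SPL13A each overlap an opposite-strand gene. The genes for MIR156a and MIR172b had too few counts to be tested.

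Of 14 clock genes, 6 were higher and none lower (median 0.41). TOC1, an evening component, had 7.88, 7.12 and 7.22 CPM at 14 d and 13.1, 12.3 and 12.4 CPM at 26 d, and PRR5 rose by 1.17. The labels give no time of day for the harvests.

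Copper, iron and phosphate genes changed in different ways. Of 7 copper-response genes tested, 5 were higher and none lower. The count was 3 without 14 d replicate 1, 14 d replicate 2 or 26 d replicate 1. COPT2, a copper importer, had 1.39, 1.39 and 1.47 CPM at 14 d and 5.87, 8.11 and 5.84 CPM at 26 d, and FRO4, a copper reductase, rose by 2.64. Of 12 iron genes, 3 were higher and 5 lower, and 8 were lower without 26 d replicate 2. FER1, a gene for the iron-storage protein ferritin, had 6.88, 3.85 and 7.16 CPM at 14 d and 75.0, 120 and 88.9 CPM at 26 d. It overlaps an opposite-strand gene. Of the other ferritin genes listed, FER4 rose by 1.91 and FER3 fell by 0.61 (adjusted p = 0.0250). OPT3, a transporter that signals iron status from the phloem, fell from 118, 121 and 106 CPM to 20.8, 34.1 and 20.8 CPM. Of 12 phosphate starvation genes, 7 were higher and 1 lower, or 2 lower without 14 d replicate 1. PAP17, a senescence and phosphate-starvation phosphatase, rose from 3.11, 2.2 and 3.2 CPM to 51.6, 41.4 and 47.3 CPM, with an opposite-strand gene overlapping it.

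In Col, the called precursor genes of a pair of microRNA families moved opposite to their called known targets. The comparison was chosen after the values were seen. miR398 guides cleavage of the RNAs of the copper superoxide dismutases CSD1 and CSD2 and of their chaperone CCS. The precursor gene MIR398b had 0.0560, 0.105 and 0.318 CPM at 14 d and 1.87, 1.09 and 2.02 CPM at 26 d, a log2 fold change of 3.42 ± 0.55 (SE, adjusted p = 0.00135). It overlaps an opposite-strand gene, so its counts are uncertain. MIR398c rose by 1.96, and its call was lost without 14 d replicate 1, 14 d replicate 2 or 26 d replicate 1 (adjusted p = 0.0805, 0.0856 and 0.0716). MIR398a had too few counts to be tested. CSD2 had 11.9, 20.1 and 14.7 CPM at 14 d and 1.21, 2.02 and 2.14 CPM at 26 d, and CSD1 and CCS fell by 1.39 and 1.21. In chlorella-1, MIR398b rose with age too (1.88, adjusted p = 0.0226), but CSD1 rose there as well, by 0.60. MIR398c did not pass in chlorella-1 (0.39). The libraries measured precursor-length RNA, not the mature microRNAs.

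The mature sequences, read from the RefSeq annotation of TAIR10.1, are the same for MIR398b and MIR398c, and capitals mark the seed, bases 2 to 8. Below it are the best matching sites in the target RNAs, 5′ to 3′, with capitals for bases that form Watson-Crick pairs with the microRNA. They are shown so that the pairing behind the known targeting can be read.
miR398b-3p and miR398c-3p: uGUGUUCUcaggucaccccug
CSD1 site, joined across an intron: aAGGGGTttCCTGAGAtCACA
CSD2 site: tgcGGGTGACCTGgGAAacat
CCS site: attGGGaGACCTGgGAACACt
Of the 21 bases, 17 paired in CSD1, 13 in CSD2 and 15 in CCS, besides 3 G-U pairs in CSD2 and 1 in CCS.

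The promoter of MIR398b is shown for its copper elements, since the copper regulator SPL7 binds the core GTAC in plants. Capitals mark GTAC in the 250 bases before the start (TAIR10.1, chr5:4690772-4691021, plus strand), at 245, 205, 180, 139 and 110 bases before it. GTAC, a motif added after the values were seen, occurred in 39.1% of all 17951 windows, 39.2% of those of higher genes and 40.1% of those of lower genes.
MIR398b promoter: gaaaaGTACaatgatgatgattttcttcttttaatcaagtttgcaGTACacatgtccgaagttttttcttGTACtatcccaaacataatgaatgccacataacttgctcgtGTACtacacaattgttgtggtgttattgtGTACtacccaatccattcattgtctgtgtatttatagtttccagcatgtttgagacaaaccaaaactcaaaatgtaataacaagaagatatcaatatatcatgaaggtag

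miR169 is known to target NF-YA genes, subunits of a CCAAT-binding transcription factor. Of 5 MIR169 genes tested, MIR169i, MIR169k and MIR169m were lower and none was higher. MIR169k had 1.18, 1.54 and 1.96 CPM at 14 d and 0.0160, 0.357 and 0.258 CPM at 26 d, and MIR169i and MIR169m fell by 2.78 and 1.82. The call of MIR169i was lost without 14 d replicate 2 or 14 d replicate 3 (adjusted p = 0.0571 and 0.0573), and that of MIR169m without any 14 d library (adjusted p = 0.0559 to 0.0950). Of 10 NF-YA genes tested, 9 were higher and none lower. NF-YA3 had 2.71, 2.25 and 2.37 CPM at 14 d and 13.3, 6.84 and 9.42 CPM at 26 d. NF-YA10 and NF-YA2 rose by 2.15 and 1.75, and NF-YA7 by 1.54. NF-YA1 did not pass (0.31, adjusted p = 0.109). The calls of NF-YA5, NF-YA6 and NF-YA8 were each lost without at least 1 library, with adjusted p of 0.0501, 0.0506 to 0.0523 and 0.0527 to 0.105. With all 12 libraries in the fit, NF-YA6 and NF-YA8 did not pass (adjusted p = 0.233 and 0.176).

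The 3 precursors share 1 mature sequence, shown with its seed in capitals above the best matching sites in 4 NF-YA genes, in which capitals again mark paired bases. NF-YA2 and NF-YA10 hold the same site, and NF-YA7, which also rose, holds one with fewer pairs.
miR169i, miR169k and miR169m: uAGCCAAGgaugacuugccug
NF-YA3 site: agGGgAAGTCATCCTTGGCTA
NF-YA2 and NF-YA10 site: CAGGCAAaTCATCtTTGGCTc
NF-YA7 site: CtGGtAAaTCcgCCaTGGCTg
The NF-YA3 site and the NF-YA2 and NF-YA10 site left 2 of 21 bases unpaired, the NF-YA7 site 5 and the NF-YA4 site 6. NF-YA4 rose by 0.94.

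Noncoding genes were led by small nuclear RNAs, the RNA part of the spliceosome. Of 26 tested, 15 were higher and none lower, with a median of 1.18. By type, 8 of 11 U2 genes, 3 of 7 U1 genes and both U5 genes were higher. U1.6 and U1.7 rose from means of 160 to 492 CPM each, and because copies are nearly identical, the split of reads between them is uncertain. AT1G15405, a noncoding RNA gene, had the highest deposited FPKM of all nuclear genes at both ages, 16697 and 15067, with a log2 fold change of −0.13 ± 0.20 that did not pass. AT2G26355, a noncoding RNA, rose from 1.3, 2.34 and 2.46 CPM to 16.5, 12.9 and 19.8 CPM, and overlaps an opposite-strand gene. AT1G09765 rose by 2.18. AT4G13495 fell from 138, 155 and 147 CPM to 73.1, 67.5 and 81.9 CPM, and MIR850, which lies within it, fell by 0.87. Of 32 microRNA precursor genes tested, 6 were higher (18.75%) and 8 lower (25.0%), against 27.9% and 26.1% over all genes tested. Neither share was thus larger than over all genes.

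Cytosolic ribosomal protein genes stayed close to the middle, with 38 lower, 18 higher and 56 not called of 112 (median −0.14). The higher count was 8 without 14 d replicate 3 and 9 with all 12 libraries in the fit. In their promoters, 67.9% held site II and 41.1% a telo-box. The list was drawn by product description, and a place in the cytosolic ribosome was not checked gene by gene. Among members listed by family name alone, AT4G28360, of the L22p/L17e family, fell by 1.54, and AT5G06360, of the S8e family, rose by 1.04. Of 7 heat shock genes tested, 4 were higher and 1 lower, and HSP70 rose from 1.2 to 2.05 CPM to 6.70 to 15.3 CPM.

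In chlorella-1, whose 6 libraries are separate from those of Col, 12926 of 19652 genes changed with age (65.8%). Among 18502 genes tested in both lines, 3527 rose in both, which is 68.0% of the genes that rose in Col and 60.8% of those that rose in chlorella-1. Of those that fell, 3690 did so in both, 76.5% and 60.03%. In the opposite direction to Col were 230 genes that rose and 198 that fell in Col. The difference in age change between the lines passed for 8606 of 20398 genes (42.2%). RBCS1A fell by 2.35 in Col and by 4.53 in chlorella-1, and the difference passed (adjusted p = 0.000629). NAP rose by 4.27 and 5.23, with a difference that also passed (adjusted p = 0.0439), while that of NAC6, at 6.80 and 7.46, did not (adjusted p = 0.347).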

How the data were processed

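Leaf RNA of Col at 14 d and 26 d was sequenced as total RNA without ribosomal RNA, in 3 libraries per age. The gene counts are whole numbers in the authors' deposited table, on TAIR10.1 genes, and the FPKM values are also the authors', deposited beside them. HISAT2, STAR, HTSeq, StringTie and DESeq2 are named per the submitters' processing notes, with no role given. The table has 6 further columns of per-sample values that match no library here and were not used. Its 50 rows that name no gene held 0.0831% to 0.106% of the Col counts and were left out.

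The 6 Col libraries were fitted alone with edgeR 4.0.16 (quasi-likelihood test, TMM scaling, filterByExpr; R 4.3.3) with Benjamini-Hochberg adjusted p over all 18964 genes tested. CPM are scaled by the TMM library sizes. Adjusted p-values in the text come from that test unless another is named. Alternatives used DESeq2 1.42.0, limma 3.58.1, other scalings and filters, all 12 libraries, a replicate block and each library left out. On simulated data for Col 26 d against 14 d with 18964 genes, 62% of 100 changes of log2 1 and 98% of 100 changes of log2 2 were recovered, and 14 unchanged genes were called.

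Named genes were the 12 largest changes in each direction with a symbol and at least 5 CPM in an age, up to 4 members per list by smallest p, the 6 largest gains and 6 largest losses of CPM, up to 4 noncoding genes per direction, and a fixed set of senescence, flowering and photosynthesis genes. Genes named beyond this rule were chosen after their values were seen. The members and lists were chosen with earlier results of these data known. A gene at 0 counts at an age has only a bound, taken against 3 counts summed over the libraries of that age, which covers counting error only. Promoters, sites and mature microRNAs were read from the RefSeq TAIR10.1 genome and annotation, the build of the files.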

Additional observations from a re-analysis of the deposited data

Results flagged for a closer look

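For 7 of 294 named genes the age change was called in opposite directions in the lines, and the difference between the lines passed edgeR's quasi-likelihood interaction test across all genes, with the log2 difference given as chlorella-1 minus Col. In Col, 3 libraries per age lay behind each value, as in chlorella-1. Over all 18502 genes tested in both lines, 230 that rose and 198 that fell in Col did the opposite in chlorella-1. The 7 named genes also had to pass the interaction test. Of the 294 named genes, 275 were called in Col, against 54.0% of all genes tested. The frequencies among named genes and among all genes therefore cannot be compared.

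CSD1, the cytosolic copper superoxide dismutase, fell by 1.39 in Col and rose by 0.60 in chlorella-1, a difference of 1.996 (adjusted p = 0.000366). APL, a regulator of phloem identity, fell by 0.82 and rose by 1.81, a difference of 2.63 (adjusted p = 1.48e-05). TMM, a receptor-like protein of stomatal patterning, fell by 1.16 and rose by 1.62, a difference of 2.76 (adjusted p = 0.00395), and its call in Col was lost without 14 d replicate 1, 14 d replicate 2, 26 d replicate 1 or 26 d replicate 3 (adjusted p = 0.0649 to 0.172).

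AT2G33830, a dormancy and auxin-associated gene, rose by 2.76 and fell by 1.4, a difference of −4.15 (adjusted p = 8.95e-05). APR1, an enzyme of sulfate reduction, fell by 0.52 and rose by 1.96, a difference of 2.47 (adjusted p = 0.000614), and its call in Col was lost with all 12 libraries in the fit (adjusted p = 0.130). CGA1 rose by 1.63 and fell by 1.25, a difference of −2.86 (adjusted p = 0.00191). PDF1.2 rose by 5.34 and fell by 2.63, a difference of −8.02 (adjusted p = 0.000858).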

How the results depend on the processing

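Over 15 alternatives the genes called numbered 8047 (all 12 libraries in the fit) to 10456 (without 26 d replicate 2), against 10250. With an absolute log2 fold change of at least 1 also required, 5367 were called, 2498 higher and 2869 lower. With psbA left out of the totals, the nuclear protein-coding share of counts turned from 4.55 points lower to 10.2 points higher at 26 d, since psbA then no longer took part of the total, while the mitochondrial and noncoding shares rose by 0.458 and 0.889 points. The share of plastid counts other than psbA then fell by 11.6 points, against 12.8 points with psbA in the total. Of 275 called genes named or held in the named set, 38 lost the call under at least 1 alternative, 24 of them without 1 library, and none turned direction. Among genes not called, GSTF12 turned to −0.30 with limma voom (adjusted p = 0.902). Without a library in turn, GSTF12 ranged from −2.46 (26 d replicate 1 left out) to 3.67, LDOX from −0.62 (the same library) to 2.79, and CP12-2 from −0.25 to 0.02385 (again 26 d replicate 1). For the genes at 0 at an age only a bound can be given at this depth.

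Deviations of same-numbered libraries correlated at −0.013, −0.049 and 0.072, and those of differently numbered libraries at −0.12 to 0.10. With 3 libraries per age these values cannot show whether the numbers pair the samples. The main fit used no pairing. With the replicate block 9414 genes were called, 4776 higher and 4638 lower.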
